A study of Mus musculus with 6 samples.

Results

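The mRNA levels of 31 genes of cholesterol synthesis, uptake and efflux were examined in CD4 cells polarized toward Tregs in the presence of either a scrambled or a *Pgam* antisense oligonucleotide (ASO). The genes were chosen by name for their place in the pathway, and all 31 were found among the 56748 genes of the deposited count table. They are 20 enzymes, namely 8 of the mevalonate steps and 12 of the squalene and sterol steps, and 11 other genes, namely 5 for control by the SREBP factors, 3 for uptake and transport, 1 for esterification and 2 for efflux. All 31 passed the filter on low counts, which kept 14936 genes for testing, and the lowest count of any of them in any library was 18.

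The study asked how the glycolytic enzyme phosphoglycerate mutase (PGAM) acts on Treg differentiation. Naïve CD4 cells from wild-type C57BL/6 mice of 6 to 10 weeks, taken from spleen and lymph nodes, were grown for 3 days with plate-bound anti-CD3, soluble anti-CD28, IL-2, TGF-β, and antibodies against IFNγ and IL-4. An ASO, a short synthetic strand that pairs with a matching RNA, was present at 10 μM from day 0 in both groups, and only its sequence differed. There were 3 libraries of polyA RNA per group, each from unsorted cells. In such bulk RNA, fewer cells of a type and less RNA per cell cannot be told apart.

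Cells make cholesterol from acetyl-CoA by way of mevalonate, which is built up to farnesyl diphosphate, joined into squalene, closed into the ring of lanosterol, and trimmed to cholesterol. When sterols in the endoplasmic reticulum run low, the escort protein SCAP carries the SREBP transcription factors to the Golgi, where they are cut into their active form and raise transcription of the synthesis enzymes and of lipoprotein uptake genes. INSIG proteins hold SCAP back when sterols are plentiful. Surplus sterol derivatives activate the LXR receptors, which raise *Abca1* and *Abcg1*, transporters that export cholesterol, and *Mylip*, a ubiquitin ligase that removes lipoprotein receptors. Activated T cells are known to turn up sterol synthesis as they grow.

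To show the sequence context of these genes, promoter windows of 300 bases (250 before and 50 after an annotated start) were taken from RefSeq on GRCm38.p6, and 25 of the 31 genes had at least 1, with 33 windows in all. The letters of 3 motifs were searched on both strands. These were the sterol element TCACNCCAC (GTGGNGTGA on the other strand), whose letters are bound by SREBP, the CCAAT box (ATTGG on the other strand), bound by the NF-Y complex, and the E-box CACGTG. None of the 3 motifs contains another. The following are the bases before the start of *Hmgcs1*, the 1 gene whose window held the sterol element, and of *Insig1* and *Insig2*, paralogs that are compared below, with all matches in capitals. The *Insig1* stretch ends where its annotated exon begins, and none of these stretches lies in an exon or in another gene of GENCODE M21.
Hmgcs1 (chr13:119690101-119690350, plus strand): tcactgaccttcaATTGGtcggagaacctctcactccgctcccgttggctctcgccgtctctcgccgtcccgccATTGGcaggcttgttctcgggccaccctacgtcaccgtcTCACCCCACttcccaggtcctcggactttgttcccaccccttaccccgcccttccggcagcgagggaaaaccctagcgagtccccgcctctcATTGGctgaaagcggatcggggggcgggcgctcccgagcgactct
Insig1 (chr5:28071162-28071362, plus strand): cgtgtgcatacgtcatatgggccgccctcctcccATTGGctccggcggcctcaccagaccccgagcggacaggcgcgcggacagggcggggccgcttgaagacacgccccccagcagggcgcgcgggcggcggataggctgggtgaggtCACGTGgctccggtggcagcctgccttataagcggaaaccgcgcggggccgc
Insig2 (chr1:121332590-121332839, minus strand): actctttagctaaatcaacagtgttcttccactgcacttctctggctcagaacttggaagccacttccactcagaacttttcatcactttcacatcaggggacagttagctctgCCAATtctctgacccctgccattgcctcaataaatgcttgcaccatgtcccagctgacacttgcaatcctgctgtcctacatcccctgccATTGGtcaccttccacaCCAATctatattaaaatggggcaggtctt

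In the *Hmgcs1* stretch, the capitals TCACCCCAC are the sterol element, at positions -137 to -129 from the start, and the 3 runs of ATTGG are CCAAT boxes. In *Insig1*, the capitals mark a CCAAT box and, nearer the start, an E-box, while in *Insig2* they mark 3 CCAAT boxes. *Insig2* had 3 windows, and the printed stretch is from the only one of them that held a match. To show the box that most of the enzymes shared, 25 bases around the CCAAT box nearest the start are given for the 4 enzymes with the largest increase among those with a box and a window, other than *Hmgcs1*, which were picked after their values were seen.
Lss (chr10:76531533-76531557, plus strand): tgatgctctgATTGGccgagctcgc
Msmo1 (chr8:64733619-64733643, minus strand): gtggggcggaCCAATtacgacaggc
Dhcr7 (chr7:143830155-143830179, plus strand): tccacttccgATTGGtcgtctgtga
Mvd (chr8:122443435-122443459, minus strand): ggccagcgggCCAATcatatggcag

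The stretches of *Msmo1* and *Dhcr7* lie in exons of transcripts of these genes in GENCODE M21, that of *Lss* lies upstream of any annotated gene, and that of *Mvd* lies within the span of *Gm20388* on the other strand but in none of its exons. *Dhcr7* had 3 windows, and its printed box belongs to an annotated start inside the gene. Its window at 143823149 to 143823448, at the 5' end of the gene, held an E-box and no CCAAT box. A CCAAT box was found for 16 of the 17 enzymes with a window (94.1%) and for 6 of the 8 other genes with one (75%). For comparison, 43.0% of the 10014 tested genes with a window, and 41.1% of all 27025 genes with one, held a CCAAT box. *Acat2* was the enzyme with a window and without the box. The sterol element was held by 1 of the 25 genes (4%), against 1.37% of the tested genes with a window. An E-box was found in 3 enzymes (*Hsd17b7*, *Sc5d* and *Dhcr7*) and in *Insig1*, *Scap* and *Abca1*, against 11.7% of the tested genes with a window. These are matches of letters in a short window and were not tested as binding sites, and the window of *Insig1*, a textbook SREBP target, held no TCACNCCAC.

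**Figure D1:**
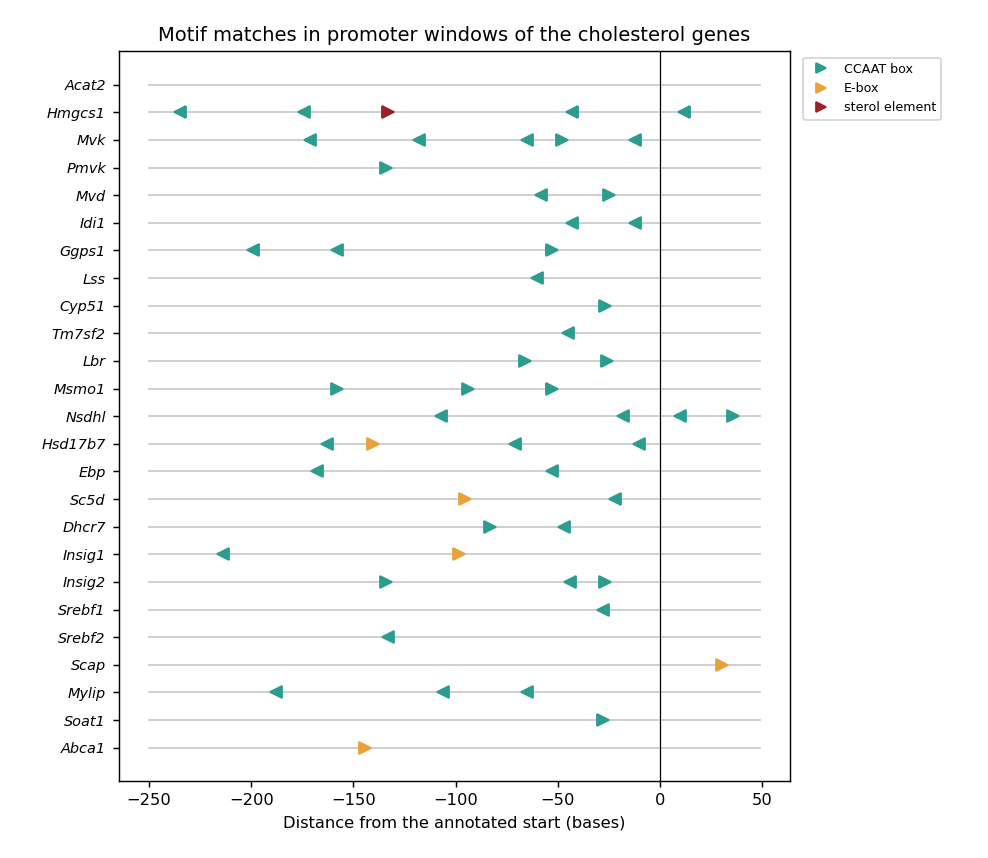
Matches of 3 motifs in the promoter window of each of the 25 cholesterol genes with a window, by distance in bases from the annotated start (x axis); arrowheads point right for a match on the gene's strand and left for the other strand, and for genes with several windows the one with most matches is drawn. CCAAT boxes (teal) stand on 22 of the 25 lines, and the sterol element (dark red) on that of *Hmgcs1* alone.

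The targeted genes were checked before any other. *Pgam1* was at 599.6, 478 and 707 CPM (counts scaled to a common library size, with edgeR's TMM factors) in replicates 1, 2 and 3 with scrambled ASO and at 658, 661 and 707 CPM with *Pgam* ASO, a log2 fold change of 0.18 (adjusted p = 0.331). *Pgam2* was at 5.23, 6.75 and 2.85 CPM and at 2.98, 2.69 and 2.60 CPM, a log2 fold change of -0.84 (adjusted p = 0.0854). Neither passed the threshold, so the groups are named by the ASO on their labels, and every direction below rests on those labels. Totals ran from 15860476 to 18032805 counts, so that 1 count was worth 0.0540 to 0.0642 CPM. The markers of CD4 T cells were abundant in every library, with 7 genes summing to 2617 to 3019 CPM in the scrambled ASO libraries and to 2273 to 2387 CPM in the *Pgam* ASO libraries, without overlap. Of these, *Cd28* and *Cd5* fell and 5 did not pass the test. Among those 5, *Cd4*, *Cd3e*, *Cd3d* and *Cd3g* were lower with *Pgam* ASO without overlap (edgeR adjusted p from 0.052 to 0.087), and *Lck* overlapped. Of 5 Treg markers, which summed to 2886 to 3331 CPM and to 3378 to 3750 CPM, *Il2ra* rose, *Foxp3* (log2 fold change -1.41, adjusted p = 0.00567) and *Ikzf2* fell, and 2 did not pass. The higher sum came from *Il2ra*, at a mean of 1929.5 CPM with scrambled ASO and 2767.5 CPM with *Pgam* ASO. Each of the other Treg markers had a lower mean with *Pgam* ASO. Markers of B cells, macrophages and monocytes, dendritic cells, CD8 T cells, NK cells, erythroid cells, and mast cells and basophils each summed to 1.06 to 15.7 CPM in every library. Of these, NK cell markers were at 3.22 to 9.88 CPM with scrambled ASO and 1.06 to 1.89 CPM with *Pgam* ASO, dendritic cell markers at 6.64 to 7.50 CPM and 3.85 to 6.34 CPM, macrophage and monocyte markers at 8.10 to 8.91 CPM and 5.84 to 7.51 CPM, and mast cell and basophil markers at 1.07 to 1.89 CPM and 2.96 to 4.10 CPM, each without overlap. The NK cell sum was almost all *Klrd1*, at a mean of 6.11 CPM with scrambled ASO and 1.43 CPM with *Pgam* ASO. The dendritic cell sum was mostly *Zbtb46*, at a mean of 6.43 and 4.32 CPM, which did not pass (adjusted p = 0.134). In that list *Siglech* and *Clec9a* were at 0 in every library, and *Flt3* was at a mean of 0.46 and 0.68 CPM. The sums of the B cell, CD8 T cell and erythroid lists overlapped. Of the genes in these 7 lists, *Cd8a* rose (log2 fold change 1.12, adjusted p = 0.0286) and *Klrd1*, an NK cell receptor, fell (log2 fold change -2.09, adjusted p = 0.0131). The other CD8 T cell marker, *Cd8b1*, had a log2 fold change of -0.20 (adjusted p = 0.454). Of the other NK cell markers, *Klrb1c* was at 0 in every library and *Ncr1* was counted too seldom for a test. The part that a shift in cell makeup has in the results below was not tested.

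Each of the 14936 genes was tested with edgeR (quasi-likelihood, Benjamini-Hochberg adjusted p), and a gene is said to have risen or fallen where the adjusted p was under 0.05. Fold changes are those of *Pgam* ASO over scrambled ASO. Of all tested genes, 8.03% were called higher, 9.15% were called lower, and in 39.5% the 3 libraries of one group all lay on the same side of the 3 of the other. The share of all tested genes at an unadjusted p under 0.05 is not given here. Counts at that threshold below are therefore not read as results about the genes listed.

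Transcripts of the synthesis enzymes were more abundant in the libraries labelled *Pgam* ASO. Of the 20 enzymes, 13 rose, 0 fell and 7 did not pass the test, and the log2 fold change was above 0 for 19. At an unadjusted p under 0.05, edgeR also called 0 lower, as did DESeq2 and limma-voom after adjustment. The median log2 fold change of the 20 was 0.50, against -0.0061 over all tested genes. In 15 of the 20 the groups did not overlap, each with *Pgam* ASO above. Summed over the 20 enzymes, expression was 1493, 1280 and 1560 CPM in replicates 1, 2 and 3 with scrambled ASO and 1804, 2022 and 2036 CPM with *Pgam* ASO, or 1444 ± 146 and 1954 ± 130 CPM (SD, n = 3), a ratio of 1.35. Each library labelled *Pgam* ASO was thus above each scrambled library. Without replicate 1 or 2 labelled scrambled ASO, or replicate 1 or 2 labelled *Pgam* ASO, the number of enzymes called higher was 4, 8, 8 and 3, and *Acat2*, *Lss* and *Dhcr7* were the genes called whichever library was left out.

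Within a group, many enzymes were lowest or highest in the same library. Of the 20, 17 were lowest in replicate 2 of the scrambled ASO libraries and 14 highest in replicate 3. Among the *Pgam* ASO libraries, 15 were lowest in replicate 1 and 0 were highest there. The replicates have no order, and these counts describe single libraries.

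**Figure D2:**
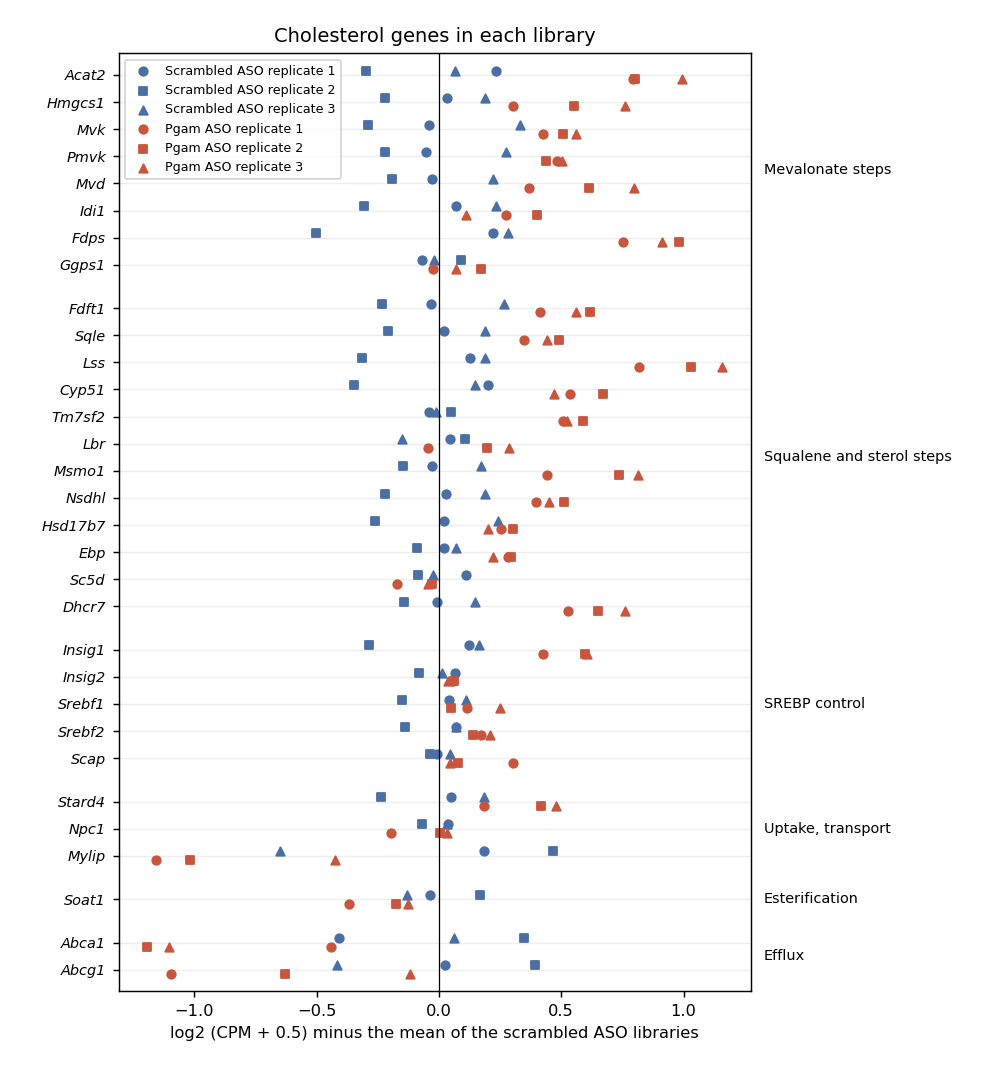
Each of the 31 genes (rows, by role) in each of the 6 libraries, as log2 (CPM + 0.5) minus the mean of the 3 libraries labelled scrambled ASO (x axis); blue is scrambled ASO, red is *Pgam* ASO, and the symbol gives the replicate. In 15 of the 20 enzymes the red symbols lie to the right of all blue ones, while *Abca1* has its red symbols on the left.

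The mevalonate steps lead from acetyl-CoA to the isoprenoid building blocks, and 5 of their 8 genes rose. *Acat2*, the thiolase that joins acetyl-CoA units (chromosome 17, 12942890 to 12960747, minus strand; positions of genes are those of GENCODE M21 on GRCm38), was at 59.8, 41.2 and 53.2 CPM with scrambled ASO and at 88.4, 88.8 and 101 CPM with *Pgam* ASO. All 3 *Pgam* ASO libraries lay well above the highest scrambled one. This was a log2 fold change of 0.86 (SE 0.13, adjusted p = 0.00413, where SE is the standard error). *Acat2* shares 43.8% of its 31-base stretches with its neighbouring paralog *Acat3* and 13.2%, on the other strand, with *Tcp1*, which overlaps *Acat3*, so Kallisto has to divide reads among them. Added to these genes, the sum of which is mostly *Tcp1*, its log2 fold change was 0.37 (adjusted p = 0.0528). The log2 ratio of *Acat2* to *Tcp1* was from -3.50 to -3.15 in the scrambled libraries and from -2.92 to -2.55 in the *Pgam* ASO libraries, without overlap.

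*Hmgcs1*, the synthase that commits carbon to HMG-CoA (chromosome 13, 119690379 to 119708260, plus strand), was at 164, 137 and 182 CPM with scrambled ASO and at 198, 235 and 272 CPM with *Pgam* ASO. The groups did not overlap, and the log2 fold change was 0.54 (SE 0.13, adjusted p = 0.0253). The promoter of this gene, printed above, was the 1 among these genes with the sterol element. Per kilobase of median transcript length, the kinases and the decarboxylase that follow in the pathway (15.9 to 24.4 CPM per kilobase with scrambled ASO) were less abundant than *Hmgcs1* (48.0 CPM per kilobase). *Mvk*, mevalonate kinase, was at 20.1, 16.9 and 26.2 CPM and at 28.0, 29.7 and 30.8 CPM, without overlap, but missed the threshold (log2 fold change 0.49, adjusted p = 0.0522). *Pmvk*, phosphomevalonate kinase, was at 23.1, 20.5 and 29.1 CPM and at 33.7, 32.7 and 34.1 CPM, and rose (0.47 on the log2 scale, adjusted p = 0.0374). *Mvd*, the decarboxylase that makes isopentenyl diphosphate, was at 41.7, 37.1 and 49.6 CPM and at 55.0, 65.3 and 74.1 CPM, and rose (0.60 on the log2 scale, adjusted p = 0.0193). In all these genes replicate 2 labelled scrambled ASO was the lowest library of the 6.

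Of the last enzymes of this stretch, *Fdps* rose while *Idi1* and *Ggps1* did not pass, and whether they differ from each other was not tested. *Idi1*, the isomerase of isopentenyl diphosphate, was at 120.2, 92.4 and 135 CPM with scrambled ASO and at 138, 151 and 123 CPM with *Pgam* ASO, with overlap and a log2 fold change of 0.25 (adjusted p = 0.217). *Fdps*, which makes farnesyl diphosphate, was counted at only 4.61, 2.59 and 4.83 CPM and at 6.89, 8.15 and 7.75 CPM, without overlap, and rose by 0.92 on the log2 scale (SE 0.25, adjusted p = 0.0341). This low level is uncertain, as 27.9% of the 31-base stretches of *Fdps* are shared, among others with *Gm43738*, *Gm3571* and *Gm5873*. *Fdps* with *Gm43738* and *Gm3571* added, which were counted more often than *Fdps* itself, gave a log2 fold change of 0.89 (adjusted p = 0.0174). Likewise *Idi1* shares 27.1% of its stretches, mainly with *Gm13502*, *Ggps1* 14.9%, *Hmgcs1* 13.1% and *Scap* 11.3%, and the values of these genes are uncertain to that extent. *Ggps1*, which diverts farnesyl diphosphate to geranylgeranyl diphosphate for protein prenylation, was at 36.8, 41.1 and 38.1 CPM and at 37.9, 43.6 and 40.5 CPM. Its groups overlapped and its log2 fold change was 0.073, with a 95% interval from -0.14 to 0.29.

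The squalene and sterol steps begin at the branch to sterols, and 8 of their 12 genes rose. *Fdft1*, squalene synthase, was at 71.6, 62.2 and 88.2 CPM with scrambled ASO and at 97.8, 113 and 108 CPM with *Pgam* ASO, without overlap (log2 fold change 0.52, adjusted p = 0.0225). Its exons overlap those of the cathepsin gene *Ctsb* on the other strand (17.6% of its 31-base stretches), and it shares 14.3% with *Gm6781*. Summed with these, which carry many more counts than *Fdft1*, the log2 fold change was 0.12 (adjusted p = 0.336), and since a strand setting is not given in the sources used here, reads from the overlap cannot be told apart. *Sqle*, the monooxygenase that makes squalene epoxide, was at 116, 98.4 and 130 CPM and at 145, 160.3 and 155 CPM, again without overlap, and rose by 0.42 on the log2 scale (adjusted p = 0.0271).

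*Lss*, lanosterol synthase, closes the sterol ring (chromosome 10, 76531588 to 76557138, plus strand) and had the largest increase of the 31 genes on the log2 scale. It was at 62.2, 45.6 and 64.7 CPM in replicates 1, 2 and 3 with scrambled ASO and at 101, 117 and 127 CPM with *Pgam* ASO. The lowest *Pgam* ASO library was above the highest scrambled one by more than the whole spread of the scrambled group. The fold change was 1.999 (log2 fold change 0.999, SE 0.14, adjusted p = 0.00273). *Cyp51*, which removes a methyl group from lanosterol, was at 193, 132 and 186 CPM and at 244, 268 and 233 CPM, without overlap (log2 fold change 0.54, adjusted p = 0.0264).

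The next reaction, reduction of the sterol at C14, can be carried out by the products of *Tm7sf2* and of *Lbr*, the latter also a receptor of the inner nuclear membrane. *Tm7sf2* was at 13.1, 13.99 and 13.4 CPM with scrambled ASO and at 19.4, 20.5 and 19.6 CPM with *Pgam* ASO, 2 tight groups without overlap, and rose by 0.55 on the log2 scale (SE 0.11, adjusted p = 0.0141). *Lbr*, the more abundant per kilobase (66.9 against 9.99 CPM per kilobase with scrambled ASO), was at 241, 252 and 211 CPM and at 227, 268 and 286 CPM, with overlap and a log2 fold change of 0.15 (adjusted p = 0.352). The log2 ratio of *Tm7sf2* to *Lbr* was -4.12 ± 0.12 with scrambled ASO and -3.71 ± 0.16 with *Pgam* ASO (SD, n = 3), without overlap (exact two-sided permutation test p = 0.1, the smallest that 3 against 3 allows, 0.15 adjusted over 9 ratios). *Tm7sf2* shares exonic bases with *Vps51*, which is counted several times more often, and their sum had a log2 fold change of 0.11 (adjusted p = 0.368).

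The genes for removal of the C4 methyl groups were *Msmo1*, *Nsdhl* and *Hsd17b7*. *Msmo1*, the oxidase of this complex (chromosome 8, 64718139 to 64733792, minus strand), was at 60.7, 55.9 and 69.9 CPM with scrambled ASO and at 84.3, 103 and 109 CPM with *Pgam* ASO, without overlap, and rose by 0.67 on the log2 scale (SE 0.12, adjusted p = 0.00796). *Nsdhl*, the dehydrogenase, was at 32.4, 27.1 and 36.2 CPM and at 41.8, 45.3 and 43.5 CPM, and rose by 0.45 (adjusted p = 0.0293). *Hsd17b7*, the ketoreductase, was at 60.6, 49.8 and 70.8 CPM and at 71.4, 73.8 and 68.8 CPM, with overlap (log2 fold change 0.24, adjusted p = 0.184). Thus 2 of the 3 genes of the complex rose, and whether the members differ from each other was not tested.

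The last steps act on the double bonds of the sterol. *Ebp*, the isomerase, was at 48.1, 44.5 and 49.9 CPM with scrambled ASO and at 57.9, 58.4 and 55.3 CPM with *Pgam* ASO, without overlap, with a log2 fold change of 0.27 (adjusted p = 0.0579). *Sc5d*, the desaturase, was the 1 enzyme with a negative log2 fold change, -0.082 with a 95% interval from -0.28 to 0.11, and was at 82.2, 71.6 and 74.7 CPM and at 67.5, 74.6 and 73.7 CPM. *Dhcr7*, the reductase that makes cholesterol from 7-dehydrocholesterol (chromosome 7, 143823145 to 143848410, plus strand), was at 42.4, 38.6 and 47.2 CPM and at 61.6, 67.2 and 72.5 CPM, without overlap, and rose by 0.65 on the log2 scale (SE 0.10, adjusted p = 0.00517). Of the enzymes that form and use up 7-dehydrocholesterol, the latter, *Dhcr7*, thus rose, while *Sc5d* did not pass and its interval lay on both sides of 0. The log2 ratio of *Dhcr7* to *Sc5d* was -0.84 ± 0.16 with scrambled ASO and -0.10 ± 0.069 with *Pgam* ASO (SD, n = 3), without overlap (exact two-sided permutation test p = 0.1, the smallest possible, 0.15 adjusted over 9 ratios).

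**Figure D3:**
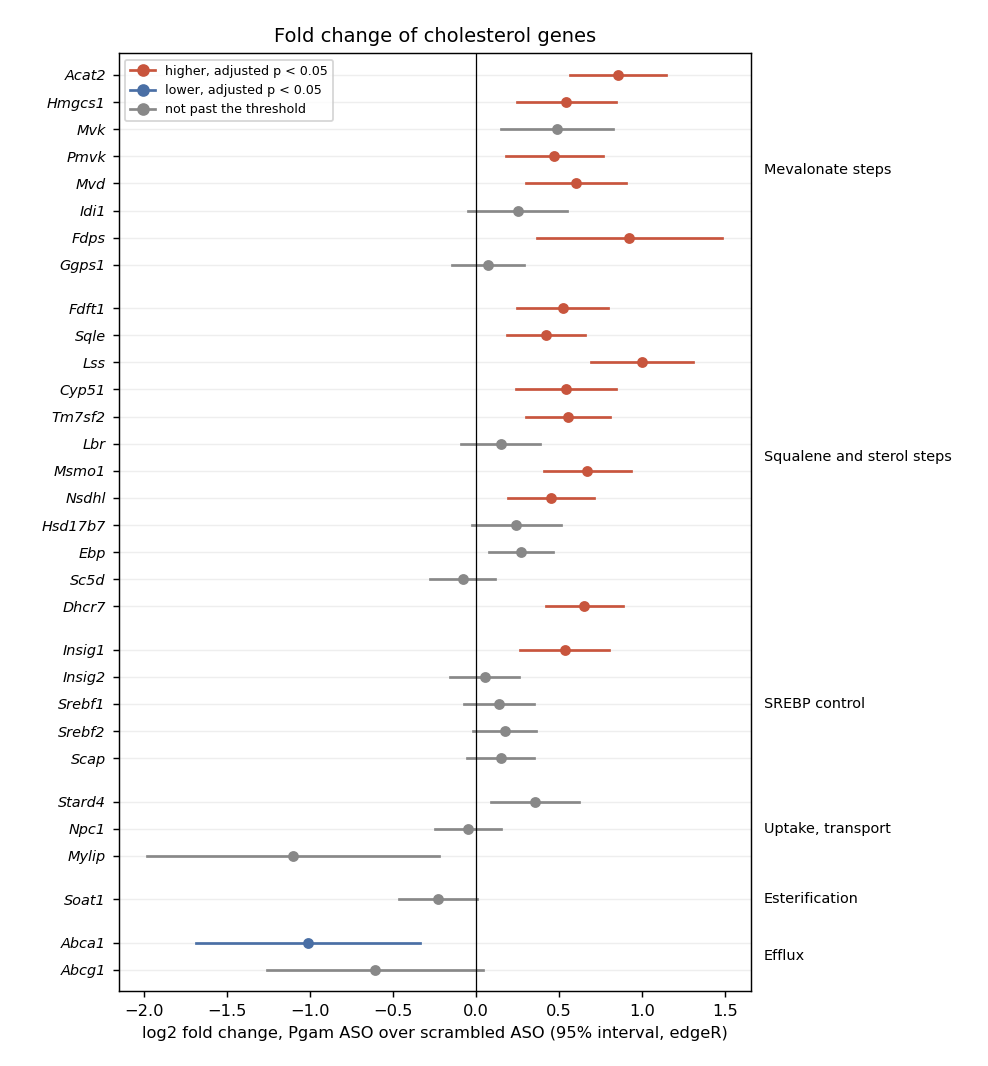
Log2 fold change of *Pgam* ASO over scrambled ASO for each of the 31 genes (points) with its 95% interval from edgeR (lines), n = 3 libraries per group; red marks genes called higher, blue lower, grey not past an adjusted p of 0.05. The 14 genes called higher lie between 0.42 and 0.999, and *Abca1* at -1.01 is the gene called lower.

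Of the 5 genes for control of SREBP, *Insig1* rose and 4 did not pass the test. *Insig1* (chromosome 5, 28071363 to 28078662, plus strand) encodes the sterol-dependent retention protein that is itself an SREBP target. It was at 94.03, 70.8 and 96.7 CPM with scrambled ASO and at 116, 131 and 131 CPM with *Pgam* ASO, without overlap, and its log2 fold change was 0.53 (SE 0.12, adjusted p = 0.0192). *Insig2* (chromosome 1, 121304353 to 121332589, minus strand), whose product does the same task, was at 33.9, 30.5 and 32.6 CPM and at 33.7, 33.7 and 33.2 CPM. All its libraries lay within a narrow range and overlapped, and the log2 fold change was 0.052, with a 95% interval from -0.16 to 0.26. The log2 ratio of *Insig1* to *Insig2* was 1.47, 1.21 and 1.57 with scrambled ASO and 1.79, 1.96 and 1.99 with *Pgam* ASO, without overlap (exact two-sided permutation test p = 0.1, the smallest possible, 0.15 adjusted over 9 ratios). Their printed stretches differ in that of *Insig1* holding an E-box and that of *Insig2* holding none, and in that of *Insig2* holding more CCAAT boxes. The *Insig2* stretch was printed because its window held the boxes, and the other windows of *Insig2* held no match. Of the other genes with an E-box, *Dhcr7* rose, *Abca1* fell, and *Hsd17b7*, *Sc5d* and *Scap* did not pass. Any part of these motifs in the values was not tested.

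The transcription factors and their escort did not pass the test. *Srebf2*, whose product acts mainly on sterol genes, was at 534, 463 and 535 CPM with scrambled ASO and at 574, 562 and 589.6 CPM with *Pgam* ASO. Its groups did not overlap, but the log2 fold change of 0.17 (SE 0.085) did not pass (adjusted p = 0.178). *Srebf1*, the paralog that acts mainly on fatty acid genes, was at 205, 179.7 and 216 CPM and at 216, 206 and 237 CPM, with overlap and a log2 fold change of 0.14 (adjusted p = 0.337). *Scap* was at 94.9, 93.2 and 98.6 CPM and at 118, 101 and 98.6 CPM, so that the groups touched, with a log2 fold change of 0.15 (adjusted p = 0.277). The log2 ratio of *Srebf2* to *Srebf1* was 1.35 ± 0.037 with scrambled ASO and 1.39 ± 0.067 with *Pgam* ASO (SD, n = 3), with overlap (exact two-sided permutation test p = 0.4). Cutting of the SREBP proteins is not measured by mRNA counts. Per kilobase of median transcript length, the level of *Srebf2* (112 CPM per kilobase with scrambled ASO) was above that of *Srebf1* (46.6 CPM per kilobase).

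None of the 3 genes for uptake and transport passed edgeR's test (2 at an unadjusted p under 0.05, 0 by limma-voom and 1, *Stard4*, by DESeq2). *Stard4*, which carries sterol through the cytosol and is an SREBP target, was at 190.2, 156 and 209 CPM with scrambled ASO and at 208, 245 and 256 CPM with *Pgam* ASO. Its groups overlapped at the edge, and its log2 fold change was 0.36 (SE 0.12, adjusted p = 0.0649). *Npc1*, which exports cholesterol from lysosomes, was at 98.2, 91.2 and 98.1 CPM and at 83.5, 96.2 and 98.0 CPM, with a log2 fold change of -0.050 and a 95% interval from -0.25 to 0.15. *Mylip* was near the low end at 3.60, 4.48 and 1.80 CPM and at 1.12, 1.28 and 2.19 CPM. Replicate 3 with scrambled ASO was within the range of the *Pgam* ASO libraries, and the log2 fold change of -1.10 (SE 0.39) did not pass (adjusted p = 0.0773).

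Esterification and efflux genes had negative log2 fold changes, and of these 3 genes *Abca1* fell. *Soat1*, which esterifies cholesterol for storage, was at 68.2, 78.7 and 63.9 CPM with scrambled ASO and at 54.2, 61.9 and 64.0 CPM with *Pgam* ASO, with overlap and a log2 fold change of -0.23 (adjusted p = 0.153). *Abca1* (chromosome 4, 53030787 to 53159895, minus strand) was at 4.33, 7.67 and 6.20 CPM and at 4.22, 2.31 and 2.49 CPM. Replicate 1 of either label was almost at the same level, and the groups were separated by that narrow gap. Its log2 fold change was -1.01 (SE 0.30, adjusted p = 0.0457), and it was called in 1 of the 6 fits with a library left out, where the adjusted p ran from 0.0366 to 0.175. *Abcg1*, the partner transporter, was at 29.9, 38.7 and 21.9 CPM and at 13.5, 18.8 and 27.0 CPM, with overlap and a log2 fold change of -0.61 (SE 0.28, adjusted p = 0.165).

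The 3 LXR targets *Abca1*, *Abcg1* and *Mylip* all had negative log2 fold changes, of which 1 was called. In each of them, as in *Soat1*, replicate 2 was the highest of the scrambled ASO libraries, the library in which most enzymes were lowest. These genes are also expressed in macrophages. Of 8 macrophage and monocyte markers, 3 could be tested and 0 were called, and their sum, given above, was lower in each *Pgam* ASO library. *Cd68*, which carried most of this sum, was at 5.12, 5.29 and 6.38 CPM with scrambled ASO and at 3.35, 3.46 and 4.44 CPM with *Pgam* ASO, without overlap (log2 fold change -0.57, adjusted p = 0.0933), and *Lyz2* had a log2 fold change of 0.35 (adjusted p = 0.481). *Itgam* had one of -1.27 (adjusted p = 0.401), and the other 5 were counted too seldom for a test. The part of such cells in the *Abca1* value was not tested.

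**Figure D4:**
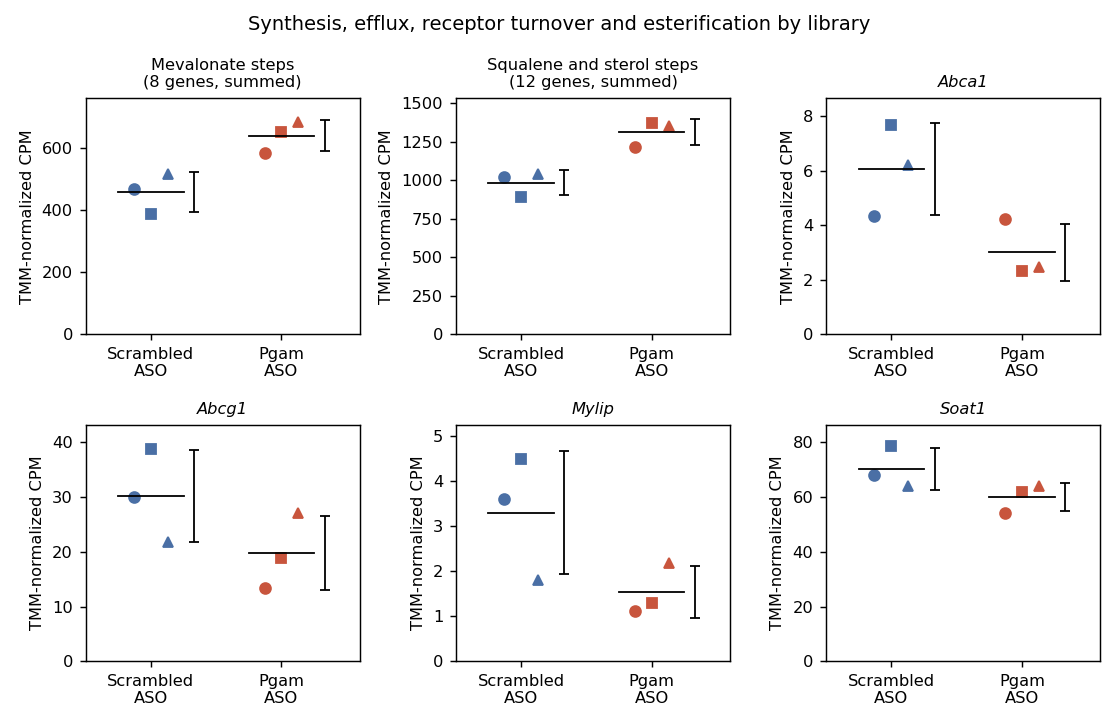
TMM-normalized CPM (y axes, each from 0) in the 3 libraries of each label, for the summed mevalonate and sterol enzymes and for *Abca1*, *Abcg1*, *Mylip* and *Soat1*; symbols are replicates 1 (circle), 2 (square) and 3 (triangle), horizontal lines are means and bars are SD. Both sums are higher in every *Pgam* ASO library, at 586 to 684 and at 1218 to 1369 CPM, whereas of the single genes only *Abca1* is without overlap.

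To place these genes among their neighbours, 57 further genes of sterol handling were examined, of which 50 could be tested, 4 rose, 5 fell and 41 did not pass. These shares are near those over all tested genes, of which 8.03% rose and 9.15% fell, and the median log2 fold change of the 50 was 0.0095. The branches that use mevalonate products for something other than sterols, such as ubiquinone, dolichol and protein prenylation, had 15 genes, of which 0 rose and 0 fell. The 8 genes for SREBP processing and its cofactors, including the proteases *Mbtps1* and *Mbtps2* and the NF-Y subunits, also had 0 calls. The 7 genes for turnover of synthesis enzymes likewise had 0 calls. DESeq2 and limma-voom made 0 calls in these 3 lists too. At an unadjusted p under 0.05 edgeR passed 4 of the 15, 4 of the 8 and 0 of the 7, counts without a share over all tested genes beside them. None of the 5 oxysterol synthesis genes was counted often enough for a test.

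Of 4 other genes of lipoprotein uptake, 2 rose, 1 fell and 1 did not pass, beside 8.03% and 9.15% of all tested genes. The median log2 fold change of the 4 was -0.10, and 2 of them had negative values. Those that rose were *Lrp8* and *Scarb1*. *Lrp8*, an apolipoprotein E receptor, was at 47.9, 35.8 and 49.3 CPM with scrambled ASO and at 97.1, 92.2 and 81.8 CPM with *Pgam* ASO, and rose by 1.03 on the log2 scale (adjusted p = 0.00155). *Scarb1*, the receptor for high-density lipoprotein, was at 63.5, 46.7 and 60.7 CPM and at 79.6, 74.6 and 74.5 CPM, and rose by 0.42 (adjusted p = 0.0352). In both the groups did not overlap, beside 39.5% of all tested genes.

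Of the 7 genes for transport of sterols inside the cell, 3 fell, beside 9.15% of all tested genes. *Npc2*, the soluble partner of *Npc1* in the lysosome, was at 271, 258 and 281 CPM with scrambled ASO and at 175, 190.2 and 211 CPM with *Pgam* ASO, a log2 fold change of -0.49 (adjusted p = 0.00955), while *Npc1* itself did not pass. *Stard5* had a log2 fold change of -0.51 (adjusted p = 0.0363) and *Gramd1c* of -0.78 (adjusted p = 0.0375). Of 5 LXR receptors, partners and other LXR targets, 4 could be tested, and 2 rose and 0 fell, beside 8.03% and 9.15% of all tested genes. The 2 that did not pass were the receptor *Nr1h2* and the partner *Rxrb*, with log2 fold changes of -0.096 and -0.15. *Rxra*, another receptor with which LXR pairs, was at 31.5, 29.6 and 30.2 CPM and at 105, 84.2 and 60.4 CPM. It rose by 1.45 on the log2 scale (adjusted p = 0.00173). *Lpcat3*, a phospholipid acyltransferase and LXR target, rose by 0.54 (adjusted p = 0.00661), a direction opposite to that of *Abca1*. *Abca7*, a further transporter, was at 226, 262 and 204 CPM and at 163, 156 and 193 CPM, and had a log2 fold change of -0.43 (adjusted p = 0.0307). In the 6 genes of this paragraph that were called, the groups did not overlap, beside 39.5% of all tested genes. They were named for passing the test on the same libraries, so this adds no support. Of the 9 related genes called, *Rxra*, *Lpcat3* and *Lrp8* were called whichever library was left out, *Npc2* in 5 of the 6 fits, and the other 5 in 1 or 2.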

How the data were processed

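RNA-seq was analysed from 6 cultures, 3 labelled scrambled ASO and 3 labelled *Pgam* ASO, at day 3 with 10 μM ASO. Per the labels and the paper, the authors estimated transcript counts with Kallisto against GRCm38. The deposited table holds estimated counts by Ensembl gene for the 6 libraries, as whole numbers with no normalization, and every value column was used. The version, annotation, strand setting and summing to genes are not given in the sources used here. Sums of estimated counts can move reads between genes that share 31-base stretches, and 8 of the 31 genes share at least 10% of theirs (GENCODE M21 transcripts).

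In R 4.3.3, genes were kept by filterByExpr of edgeR 4.0.16, scaled by TMM, and tested two-sided by its robust quasi-likelihood method, with p-values adjusted by Benjamini-Hochberg over 14936 genes and a threshold of 0.05. CPM per kilobase uses the median length of a gene's transcripts. Alternatives were RLE size factors, library size alone, no filter, at least 10 counts in every library, DESeq2 1.42.0, limma-voom (limma 3.58.1), a block for replicate number, leaving out each library, and an adjusted p under 0.01. Summing a gene with those that share its sequence was added after seeing the data. The study itself used DESeq2. Scripts were tested on simulated data. The 9 log2 ratios between genes were compared by exact two-sided permutation, for which 3 against 3 cannot go below 0.1.

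The 31 genes, the related genes and the marker lists were chosen with earlier results of these data known. Named are all 31 genes, the related genes with an adjusted p under 0.05 (except 1 that is not reported here), the targeted genes, and markers where a list is described. Other genes are named only as overlapping or as list members. The paper names 3 biological replicates per group, but nothing ties libraries to single mice, so p-values measure only the spread between these samples. Pairs of libraries with the same label differed by 7.43 to 26.8 chi-square per degree of freedom, so none was a duplicate. Batch information is not given in the sources used here. Promoter windows are from RefSeq (GRCm38.p6), and Fdps, Fdft1, Sqle, Stard4, Npc1 and Abcg1 had none. The protein sequences were not used here.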

Additional observations from a re-analysis of the deposited data

How the results depend on the processing

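Under RLE size factors, library size alone and at least 10 counts in every library, all 31 genes kept their call, with 14 higher and 1 lower. The median of all tested genes moved by less than 0.1 (log2) under each scaling, from -0.0061 to -0.042 with library size alone. Limma-voom also called *Mvk*, DESeq2 also called *Mvk* and *Stard4*, and dropping the filter added *Mvk*, *Stard4*, *Mylip* and *Abcg1*, which brought the calls among the 11 control, uptake, esterification and efflux genes from 2 to 5. DESeq2 called 3213 of all tested genes, edgeR 2565 and edgeR without the filter 3732 of 28512. At an adjusted p under 0.01, 453 of all tested genes, 4 enzymes, 0 of the 11 other genes and 4 related genes were called.

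No pairing by replicate number was seen (Pearson r of deviations across genes of 0.079, -0.039 and -0.28 for numbers 1, 2 and 3, and 1 of 6 libraries correlated best with its own number). With 3 libraries per group this check cannot exclude a shared source, and the labels do not say what a number shares. With replicate number as a block, 1235 of all tested genes, 8 enzymes, 1 of the 11 other genes and 4 related genes were called.

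With each library left out in turn, calls ran from 391 to 3484 over all tested genes, from 3 to 16 for enzymes higher, from 0 to 3 for the 11 other genes and from 3 to 14 for the related genes. No enzyme was called lower under any alternative. All 15 called genes kept their sign in all 6 of these fits, and 8 were called in at least 4. *Abca1* was called in the fit without replicate 1 labelled *Pgam* ASO alone. Without this library the log2 fold change of *Npc1* was 0.022 (adjusted p = 0.910), the 1 value that turned sign, and the other fits gave down to -0.088. Without replicate 3 labelled scrambled ASO, *Mvk*, *Hsd17b7*, *Ebp*, *Stard4* and *Mylip* were also called, and without replicate 3 labelled *Pgam* ASO, *Mylip* and *Abcg1*. The cause of these shifts was not tested. Summed with genes that share their sequence, *Acat2*, *Fdft1* and *Tm7sf2* were no longer called, while *Hmgcs1* and *Fdps* were. Searching TCACCCCAC in place of TCACNCCAC left the share of genes with the sterol element at 4%.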
